A study of Sinotaia aeruginosa with 24 samples.

Results

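Snail brains exposed to cadmium together with polystyrene were compared with brains exposed to cadmium alone, which measured what adding polystyrene changed in cadmium-fed animals. The samples were chosen by their labels only: 3 combined and 3 cadmium brain samples, 6 of the 24 samples of the series. The study exposed the freshwater snail labelled Sinotaia aeruginosa, called Bellamya aeruginosa in the series title, through algae given as food, and took RNA on day 42. The cadmium group carried the medium concentration of cadmium, and the combined group the medium concentrations of both cadmium and polystyrene. Both groups therefore share the cadmium exposure. The brain controls, labelled as not handled, and the brains given the medium concentration of polystyrene alone stand beside them, with 3 samples each. The labels state no value for a medium concentration, no particle size, no sex and no age, and nothing in them ties a sample to an animal of its own, so p-values reflect the sample spread only, which may be technical.

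Polystyrene microplastics are small plastic particles that grazing snails take up with their food. Cadmium is a toxic metal that binds protein thiols, and cells of many animals answer it with heat shock proteins, which refold damaged proteins, and with metal-binding and antioxidant proteins. The ganglia that form a snail's brain contain neurons, glia, haemocytes and sheath tissue with muscle fibres, and a bulk sample mixes them all.

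Values are counts of assembled gene clusters scaled to a common library total, with the unit CPM. The clusters carry the names of their best match in protein databases. Roles given below are those known for the named proteins, mostly from other animals. The 6 samples held 14450162 to 16800808 expected counts and 51128 to 57483 clusters with at least 10 counts. Sample values are given for replicates 4, 5 and 6 in that order, log2 fold changes with ± standard error are combined relative to cadmium, and a cluster was called at an edgeR quasi-likelihood p under 0.05 after Benjamini-Hochberg adjustment over all clusters tested. The brain label was checked on peptide signals: FMRFamide neuropeptides (Cluster-2499.126111) lay at 245 to 704 CPM in the 12 brain samples and at most 0.545 CPM in the 12 liver samples, and pro-neuropeptide Y (Cluster-2499.37181) at 69.7 to 671 CPM and at 0 CPM. Of 110 clusters of neuropeptides and their processing, 83 had the higher median in brain. The broader list of neuronal markers did not mark brain. Of its clusters 38 of 68 were higher in brain, but its sum was higher in liver (3068 to 3930 CPM) than in brain (1372 to 1868 CPM). A cluster named neuroligin-4 (Cluster-2499.88684) reached 1412 to 2266 CPM in liver against at most 1.89 CPM in brain.

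Adding polystyrene to cadmium changed 1785 of 64046 tested brain clusters (2.79%). Of these, 802 (1.25%) were higher and 983 (1.53%) lower in the combined brains, while the median change of all clusters was -0.01 on the log2 scale. Changes were large where they were called, with a median size of 3.84 on the log2 scale. The called clusters were mostly rare transcripts: 715 reached a mean of 5 CPM in the higher group and 47 a mean of 100 CPM. No count at all was found in the combined brains for 301 of the lower clusters, and none in the cadmium brains for 179 of the higher ones. Among all tested clusters, 795 had no count in the combined brains and 582 none in the cadmium brains. Database names were carried by 345 of the called clusters (19.3%), against 27.2% of all tested. The 3 combined and 3 cadmium values did not overlap for 1783 called clusters, and for 14314 (22.3%) of all tested ones. Single samples weighed on the number of calls: it fell to 780 without cadmium 4, 1011 without cadmium 5, 963 without cadmium 6 and 896 without combined 5, and rose to 2816 without control 5, a sample that stood apart from the other controls. Called under every one of the 12 omissions were 583 clusters.

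**Figure D1:**
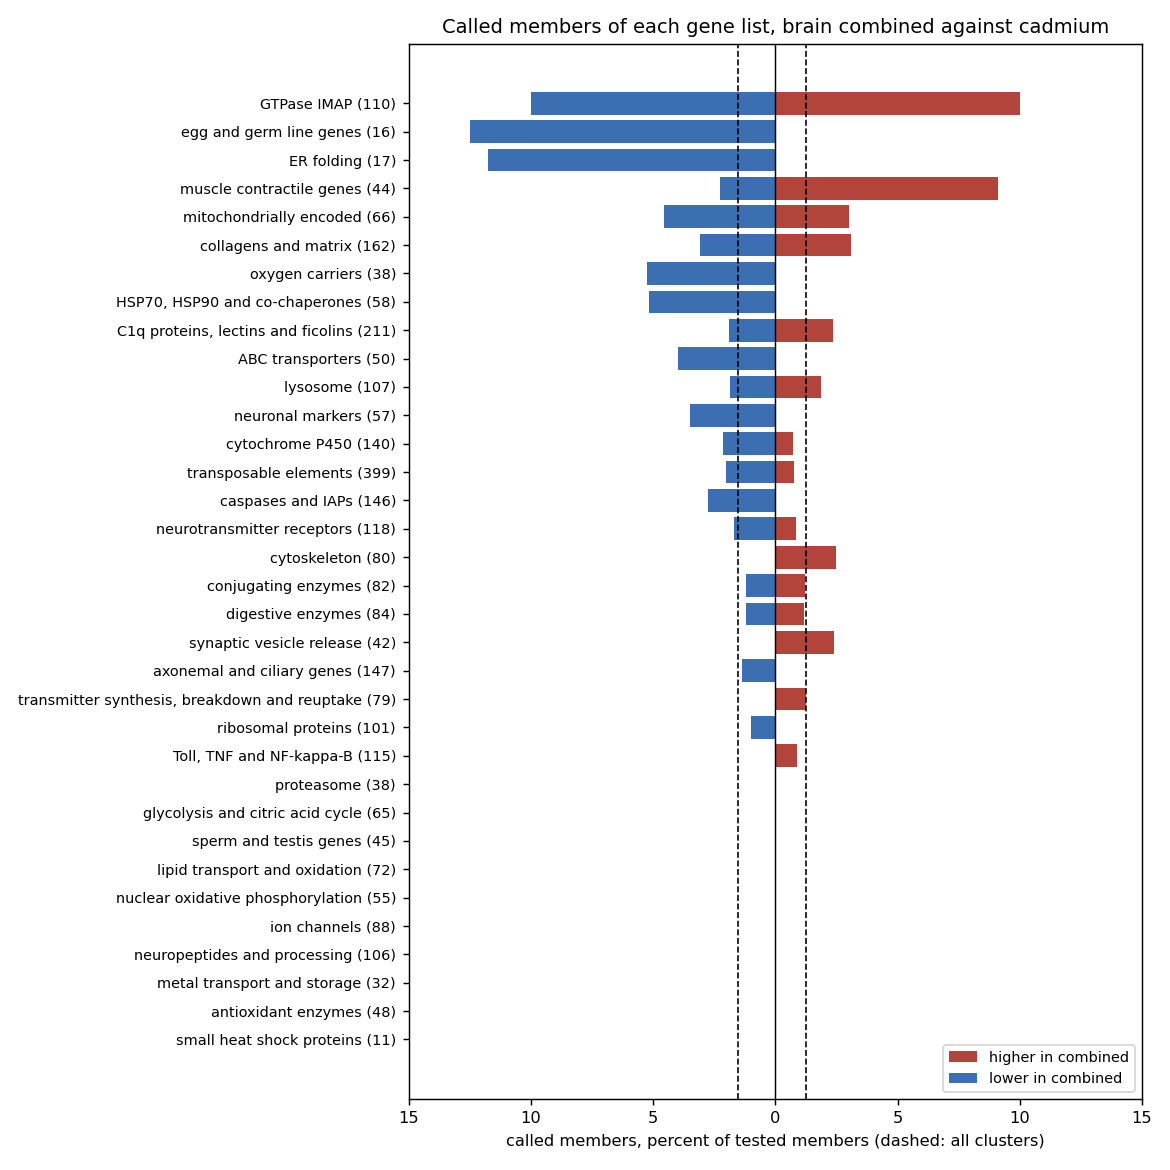
Members called higher (red, right) or lower (blue, left) in combined than in cadmium brains, as percent of the tested members of each gene list (number tested in parentheses). Dashed lines mark the share over all 64046 clusters, 1.25% higher and 1.53% lower; GTPase IMAP genes had 11 members called each way.

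Heat shock protein 70 B2 and HSP 90-beta, which cadmium alone had raised, were near the control level when polystyrene was added. HSP 90-beta was chosen after its values were seen. Of 58 tested clusters of the 70 and 90 kDa heat shock proteins and their co-chaperones, 3 fell (5.17%) and 0 rose, with a median of -0.06. Heat shock protein 70 B2 (Cluster-2499.57688), a stress-induced chaperone that refolds damaged proteins, measured 18, 6.8 and 9.94 CPM in combined and 65, 66.6 and 223 CPM in cadmium brains. The groups did not overlap, and cadmium 6 stood far above the other samples. The change was -3.35 ± 0.59 (edgeR adjusted p = 0.0131). Control brains held 13.1, 4.62 and 12.7 CPM and polystyrene brains 5.48, 6.65 and 8.24 CPM, so the combined values lay in or next to both ranges. Against the same controls, cadmium alone had raised it by 3.54 on the log2 scale (edgeR adjusted p = 0.00821); that comparison shares the cadmium samples with this one.

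Heat shock cognate protein HSP 90-beta (Cluster-2499.86504), a chaperone of signalling proteins, measured 177, 194 and 190 CPM in combined and 394, 386 and 369 CPM in cadmium brains. Every combined value was below every cadmium value, and the spread within each group was small (-1.03 ± 0.21, edgeR adjusted p = 0.0158). Its control values of 179, 118 and 223 CPM and its polystyrene values of 230, 181 and 205 CPM surrounded the combined ones, and cadmium alone had raised it by 1.14 (edgeR adjusted p = 0.00667). DnaJ homolog subfamily C member 16 (Cluster-2499.127765), a co-chaperone of the 70 kDa family, measured 0.701, 0.499 and 0.672 CPM in combined and 3.41, 2.69 and 2.13 CPM in cadmium brains (-2.12 ± 0.39, edgeR adjusted p = 0.00913), below the 1.57 to 2.54 CPM of the controls. Heat shock cognate 71 kDa protein (Cluster-2499.88384), the constitutive form, measured 965, 806 and 772 CPM against 1067, 1296 and 1173 CPM, without overlap but with an edgeR adjusted p of 0.242. The 11 small heat shock clusters had none called and a median of 0.29, which was -0.19 with the summed muscle level as a term, and heat shock protein beta-8 (Cluster-2499.101098) overlapped between the groups. The calls of heat shock protein 70 B2 ended without combined 5 or 6 (adjusted p up to 0.0594), of HSP 90-beta without combined 4, combined 5 or cadmium 4 (up to 0.0654), and of DnaJ C16 without cadmium 4 (0.0502).

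**Figure D2:**
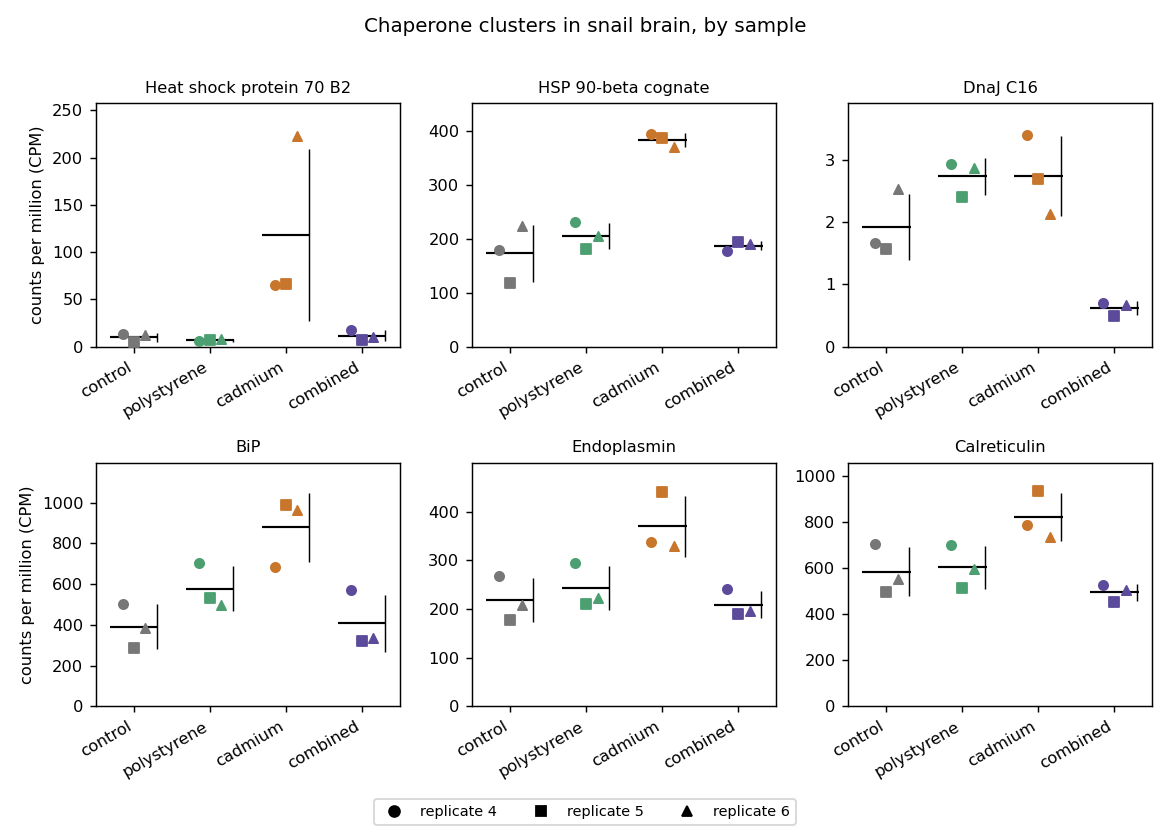
CPM of 6 chaperone clusters in the 12 brain samples, by group and replicate, on linear axes from 0; horizontal bars are group means and vertical bars 1 SD (n = 3). Cadmium brains lay above combined brains in every panel, with HSP 90-beta at 369 to 394 CPM against 177 to 194 CPM.

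The endoplasmic reticulum is where secreted and membrane proteins are folded. Of 17 tested clusters of its chaperones 2 fell (11.8%) and 0 rose in combined brains. All 17 had a log2 fold change below 0, with a median of -0.49 against -0.01 over all clusters. Endoplasmic reticulum chaperone BiP (Cluster-2499.85374), the luminal 70 kDa chaperone, measured 570, 318 and 335 CPM in combined and 685, 989 and 963 CPM in cadmium brains (-1.11 ± 0.27, edgeR adjusted p = 0.0425). Endoplasmin (Cluster-2499.83154), the luminal 90 kDa chaperone, measured 240, 190 and 195 CPM against 337, 441 and 330 CPM (-0.83 ± 0.21, edgeR adjusted p = 0.0492). Calreticulin (Cluster-2499.86539), a calcium-binding lectin chaperone, measured 526, 454 and 502 CPM against 788, 935 and 736 CPM and did not pass (edgeR adjusted p = 0.0573). None of these 3 overlapped between the groups, and replicate 4 of the combined group was the highest of its group each time. The summed level of the list was 1947 ± 214 CPM (SD, n = 3) in combined, 3160 ± 330 CPM in cadmium, 2265 ± 194 CPM in control and 2397 ± 313 CPM in polystyrene brains. The BiP and endoplasmin calls were each lost without any one of the cadmium samples or combined 5 or 6, and without polystyrene 5 (adjusted p up to 0.173 and 0.186), that of endoplasmin also without combined 4, control 6 or polystyrene 6, and without control 5 the list had 5 members lower.

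Muscle transcripts summed to more in the combined brains than in any other brain group. The summed level of the list of muscle contractile genes was 73987, 53866 and 43423 CPM in combined and 25680, 38238 and 24191 CPM in cadmium brains. Controls held 22205, 19736 and 35792 CPM and polystyrene brains 27198, 33128 and 17385 CPM, so all 3 combined samples lay above the other 9. Of 44 tested members 4 rose and 1 fell (11.4% called), 32 had a log2 fold change above 0, and the median was 0.72. For 23 members combined and cadmium values did not overlap, beside 22.3% of all tested clusters. All members of the list had counts in brain, and single omissions left 0 to 5 higher and 0 to 2 lower. In bulk RNA, more muscle in a sample and more muscle RNA per cell cannot be told apart.

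Paramyosin (Cluster-2499.93231), the core of molluscan thick filaments, measured 6957, 5323 and 4923 CPM in combined and 1847, 2792 and 1787 CPM in cadmium brains (1.42 ± 0.33, edgeR adjusted p = 0.0326). Catchin (Cluster-2499.50561), a filament protein of molluscan catch muscle, measured 173, 134 and 117 CPM against 42.2, 56.6 and 43.7 CPM (1.58 ± 0.34, edgeR adjusted p = 0.023). A titin cluster (Cluster-2499.64766), one of the elastic proteins of the sarcomere, measured 97.6, 91.8 and 66.1 CPM against 47.3, 48 and 36.6 CPM (0.95 ± 0.21, edgeR adjusted p = 0.0267). The combined samples were above all cadmium samples in these 3 clusters, and combined 4 was the highest. A second titin cluster (Cluster-2499.104002) rose at 0.83 ± 0.21 (edgeR adjusted p = 0.0499). Myosin heavy chain (Cluster-2499.89777), the motor of muscle, measured 22932, 14522 and 11122 CPM against 7971, 11258 and 7167 CPM, where combined 6 lay below cadmium 5 (edgeR adjusted p = 0.244).

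Adductor muscle actin (Cluster-2499.85834) measured 15448, 12438 and 10786 CPM against 5321, 7865 and 5099 CPM (1.08 ± 0.32, edgeR adjusted p = 0.1). Twitchin (Cluster-2499.89346), a giant kinase that controls catch tension, measured 3472, 2415 and 1966 CPM against 896, 1523 and 938 CPM (1.23 ± 0.35, edgeR adjusted p = 0.0903). Tropomyosin (Cluster-2499.88004), which covers the actin filament, measured 6932, 4567 and 4004 CPM against 2396, 3601 and 2433 CPM (0.88 ± 0.36, edgeR adjusted p = 0.266). These 3 clusters did not overlap between the groups and did not pass the test. Outside the list, transgelin-2 (Cluster-2499.63125), an actin-bundling protein of smooth muscle and other cells, measured 769, 668 and 652 CPM against 208, 357 and 212 CPM (1.43 ± 0.35, edgeR adjusted p = 0.0451). The 1 member of the list that fell was a rare tropomyosin-domain cluster (Cluster-2499.19350), at 0.35, 0.0624 and 0 CPM against 1.09, 1.49 and 1.15 CPM (edgeR adjusted p = 0.0495). The 5 calls of the list and that of transgelin-2 were each lost without cadmium 4, without cadmium 6 and without combined 5, and some without further samples (adjusted p up to 0.192), and no member of the list was called higher without cadmium 4, cadmium 6, combined 4 or combined 5.

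**Figure D3:**
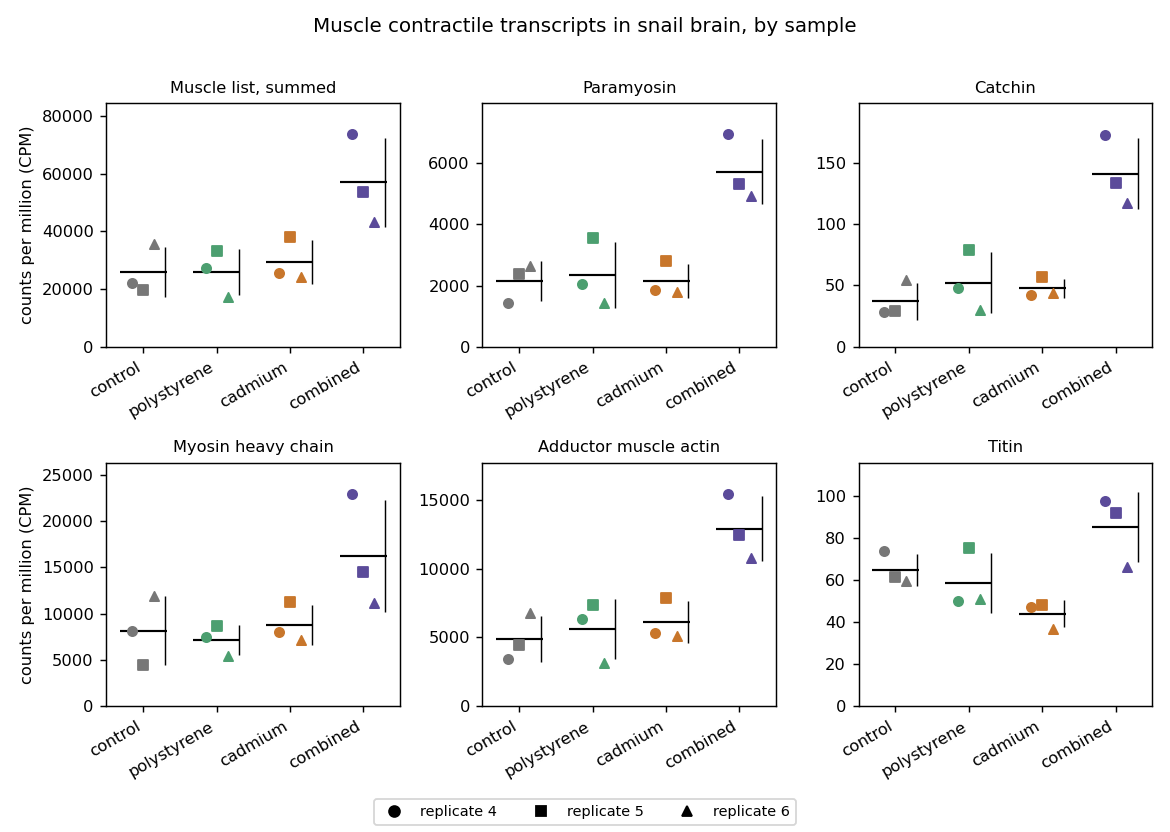
Summed CPM of the muscle contractile list and CPM of 5 of its clusters in the 12 brain samples, by group and replicate, on linear axes from 0; horizontal bars are group means and vertical bars 1 SD (n = 3). The summed level was 43423 to 73987 CPM in combined brains and at most 38238 CPM elsewhere.

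Neuropeptides and their processing enzymes, with 83 of 110 clusters higher in brain than in liver by median, summed to 3776, 2293 and 2125 CPM in combined and 3816, 3175 and 4246 CPM in cadmium brains. Combined 4 lay among the cadmium samples and the other 2 combined samples below them, and the controls held 2467 to 3647 CPM. As a sum this list did not separate the tissues, at 1699 to 3337 CPM in brain and 1513 to 1935 CPM in liver in the fit of all 24 samples. The neuronal markers summed to 2114, 1725 and 2230 CPM against 2050, 2099 and 2128 CPM and overlapped. Their sum was higher in liver (3068 to 3930 CPM) than in brain (1372 to 1868 CPM) in the fit across tissues, so it does not measure nervous tissue. Digestive enzymes, which mark the digestive gland and gut, summed to 8038, 5454 and 7305 CPM against 9817, 10691 and 8100 CPM. With the summed muscle level as a term in the model, an alternative chosen after seeing the data, 389 clusters were called, 327 of them among the 1785, and no chaperone or muscle cluster was. The muscle clusters had smaller fold changes in that fit, as for paramyosin at 0.61 and catchin at 0.55 on the log2 scale (edgeR adjusted p = 0.546 and 0.459). The chaperones named as called did not: heat shock protein 70 B2 was at -3.44, HSP 90-beta at -1.22, DnaJ C16 at -2.33, BiP at -1.53 and endoplasmin at -1.04, with edgeR adjusted p of 0.195, 0.0729, 0.0748, 0.0806 and 0.135. With the muscle clusters taken out before scaling, 1766 of the 1785 were still called. That run can change only the scaling and cannot show how muscle content bears on the other clusters. The muscle level and the combined exposure rise together in these 6 samples, and the part of muscle content in the results was not tested.

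Clusters named after genes of the mitochondrial genome, which encodes core subunits of the respiratory chain, split in 2 ways. The abundant clusters were higher in every combined than in every cadmium sample and did not pass the test: cytochrome c oxidase subunit 1 (Cluster-2499.88164) measured 9549, 9083 and 7724 CPM in combined and 5949, 6242 and 6577 CPM in cadmium brains (0.49 ± 0.26, edgeR adjusted p = 0.412), and cytochrome b (Cluster-2499.88774) 6071, 5221 and 4052 CPM against 3848, 3548 and 4011 CPM (edgeR adjusted p = 0.504). The list summed to 33936, 31958 and 24355 CPM in combined and 22583, 20787 and 22830 CPM in cadmium brains, without overlap, while controls ranged from 25747 to 55867 CPM. Over 66 tested members with intact names 2 rose and 3 fell (7.58% called), 47 had a log2 fold change above 0, and the median was 0.36. Nuclear genes of oxidative phosphorylation had 0 of 55 called and a median of 0.01.

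Rarer clusters of the same genes, some of them annotated as fragments, differed by far more. A cytochrome c oxidase subunit 1 fragment (Cluster-2499.87407) measured 1.05, 1.06 and 1.54 CPM in combined and 294, 201 and 263 CPM in cadmium brains (-7.69 ± 0.59, edgeR adjusted p = 1.13e-04). Controls held 4.2, 4.2 and 12.9 CPM and polystyrene brains 193, 415 and 527 CPM, so each single exposure was high and the combined exposure was low. A cytochrome b fragment (Cluster-2499.82579) had the same order, with 0.561, 0.187 and 0.604 CPM in combined, 96.6, 68 and 91.8 CPM in cadmium, 68, 88.4 and 121 CPM in polystyrene and at most 0.4 CPM in control brains (-7.56 ± 0.59, edgeR adjusted p = 1.13e-04).

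A further subunit 1 fragment (Cluster-2499.84918) measured 2.1, 6.62 and 5.91 CPM in combined and 339, 239 and 310 CPM in cadmium brains, with 443, 524 and 1075 CPM in controls (-5.92 ± 0.62, edgeR adjusted p = 7.63e-04). Here the combined brains stood alone below the other 3 groups. NADH-ubiquinone oxidoreductase chain 4 (Cluster-2499.26158), a complex I subunit, measured 0.421, 0.874 and 2.15 CPM against 18.6, 30.4 and 15.1 CPM (-4.20 ± 0.58, edgeR adjusted p = 0.00211). Chain 1 (Cluster-2499.109772) measured 0, 0.187 and 0 CPM against 2.63, 3.8 and 5.77 CPM, 62.4-fold lower by counts (95% counting interval 21 to 305, edgeR adjusted p = 0.00265). Cytochrome c oxidase subunit 3 (Cluster-4279.0) had no count in the 3 combined brains and 1.99, 1.04 and 0.692 CPM in cadmium brains, at least 18.7-fold lower where the 3 samples together are set to a floor of 3 counts, a bound for counting error alone (edgeR adjusted p = 0.0425). These 6 clusters showed no overlap between the groups.

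Other clusters of this kind went the opposite way. A subunit 1 fragment (Cluster-2499.74915) measured 88.9, 71.2 and 4.63 CPM in combined and 1.73, 1.64 and 0.634 CPM in cadmium brains (5.37 ± 1.06, edgeR adjusted p = 0.0321), with combined 6 far below its group and 471 to 1270 CPM in controls. NADH-ubiquinone oxidoreductase chain 4L (Cluster-2499.84200) measured 48.6, 34.9 and 18.1 CPM against 8.67, 10.5 and 11.6 CPM (1.72 ± 0.40, edgeR adjusted p = 0.0387). Chain 6 (Cluster-2499.76405) measured 7.29, 9.18 and 9.94 CPM against 0.707, 0.373 and 0.288 CPM (4.25 ± 0.86, edgeR adjusted p = 0.0268). For chains 4L and 6 controls were also higher than cadmium brains, at 151 to 374 CPM and 19.2 to 69.5 CPM. These 3 calls and that of subunit 3 each ended without any one of the cadmium samples or without combined 4 or 5 (adjusted p up to 0.219), in most cases also without further samples, while the other 5 held under every omission. Clusters of near-identical mitochondrial sequence can share reads, so the split of counts between them is uncertain.

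**Figure D4:**
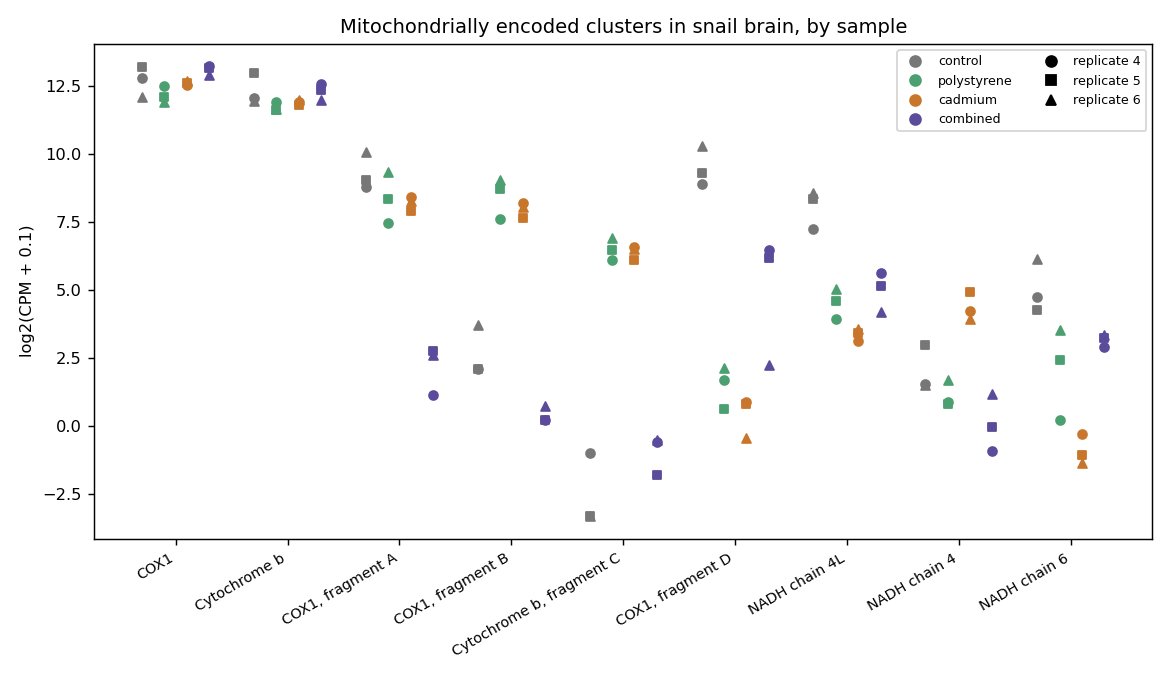
Levels of 9 clusters named after mitochondrially encoded genes, as log2(CPM + 0.1), in the 12 brain samples by group (colour) and replicate (symbol); fragments A to D are Cluster-2499.84918, Cluster-2499.87407, Cluster-2499.82579 and Cluster-2499.74915. The abundant clusters of COX1 (cytochrome c oxidase subunit 1) and cytochrome b lie together near the top in every sample, while the rarer clusters separate the groups, as for COX1 fragment B (Cluster-2499.87407) with 1.05 to 1.54 CPM in combined and 201 to 294 CPM in cadmium brains.

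A group of families, only some of which are known for antiviral defence in other animals, supplied 50 of the 983 lower clusters. They were chosen after their values were seen and were SAMD9, RNF213, PARP14 and related enzymes, sacsin, oligoadenylate synthase, NFX1-type zinc finger and DTX3 proteins. The label antiviral-type is loose, since it takes in sacsin and DTX3, with 14 and 3 of the lower clusters. Of their 358 tested clusters these 50 fell and 8 rose in combined brains (16.2% called), with a median of -0.74. Sacsin clusters had 14 of 69 lower and 0 higher, and RNF213 clusters 10 of 85 lower and 1 higher. Under single omissions the count of lower members ranged from 23 to 68, and with the summed muscle level as a term 7 were lower and 6 higher, with a median of -0.33.

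A pair of the more abundant members, chosen after their values were seen, were high under each single exposure and lower in control and combined brains. E3 ubiquitin-protein ligase RNF213 (Cluster-2499.103606), a giant ligase that tags microbes inside cells, measured 34.4, 51.2 and 70.5 CPM in combined and 131, 123 and 104 CPM in cadmium brains (-1.20 ± 0.22, edgeR adjusted p = 0.00937). Controls held 64.7, 63.8 and 58.5 CPM and polystyrene brains 114, 99.2 and 108 CPM, so every value of the single exposures lay above every control and combined value. A sacsin cluster (Cluster-2499.80496), named after a large co-chaperone of neurons, measured 15, 18.6 and 19.4 CPM in combined, 50.5, 37.2 and 41.4 CPM in cadmium, 17.1, 21.2 and 19.6 CPM in control and 47.2, 36.7 and 39.4 CPM in polystyrene brains (-1.28 ± 0.18, edgeR adjusted p = 0.00207). The combined and control values interleaved, and the cadmium and polystyrene values interleaved above them. A rarer cluster named rnf213-alpha (Cluster-2499.114305), the 1 RNF213 cluster that rose, ran the other way, with 1.82, 16.5 and 39.6 CPM in combined and 0, 0.0746 and 0.115 CPM in cadmium brains, 301-fold higher by counts (95% counting interval 103 to 1461, edgeR adjusted p = 0.0352). Controls held 7.6, 24 and 5.01 CPM and polystyrene brains 3.54, 18.3 and 6.58 CPM, so cadmium brains alone were low.

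Further sacsin clusters fell by 1.32 ± 0.32 (Cluster-2499.107288, edgeR adjusted p = 0.041) and 1.47 ± 0.27 (Cluster-2499.93522, edgeR adjusted p = 0.0101) on the log2 scale. Protein mono-ADP-ribosyltransferase PARP14 (Cluster-2499.100621), which marks proteins with ADP-ribose, measured 18.7, 31.9 and 37.3 CPM against 64.8, 65.3 and 53.7 CPM (-1.06 ± 0.22, edgeR adjusted p = 0.0175). Sterile alpha motif domain-containing protein 9-like, an antiviral restriction factor in mammals, was named on several clusters that moved both ways. Cluster-2499.94685 measured 2.45, 6.24 and 3.83 CPM against 25.3, 21.3 and 20.8 CPM (-2.42 ± 0.30, edgeR adjusted p = 8.17e-04), and Cluster-2499.86175 16.1, 22.8 and 27.7 CPM against 48.3, 38.9 and 41 CPM (-0.94 ± 0.21, edgeR adjusted p = 0.0249).

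Cluster-2499.13316 of the same name had no count in combined, control or polystyrene brains and 9.83, 6.71 and 11.5 CPM in cadmium brains, at least 141-fold lower in combined brains (edgeR adjusted p = 8.17e-04). Cluster-2499.113449 was the reverse, with 14.6, 10.5 and 9.47 CPM in combined and 0.321, 0.895 and 0.231 CPM in cadmium brains (4.61 ± 0.47, edgeR adjusted p = 2.61e-04). 2'-5'-oligoadenylate synthase 1A (Cluster-2499.67967), which in mammals makes a second messenger upon sensing double-stranded RNA, measured 8.27, 7.05 and 8.13 CPM against 28.6, 25.6 and 15.4 CPM (-1.57 ± 0.24, edgeR adjusted p = 0.00334), below the 17.3 to 20.1 CPM of the controls. A cluster named probable E3 ubiquitin-protein ligase DTX3 (Cluster-2499.35679) rose, at 1.89, 8.36 and 8.66 CPM against 1.22, 0.224 and 0.404 CPM (3.33 ± 0.67, edgeR adjusted p = 0.0221). An O-acetyl-ADP-ribose deacetylase cluster (Cluster-2499.109315), an enzyme that removes ADP-ribose products, also rose, at 8.62, 3.37 and 4.23 CPM against 0.193, 0.298 and 0.173 CPM (4.58 ± 0.70, edgeR adjusted p = 0.00298).

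Of these calls, those of rnf213-alpha, sacsin Cluster-2499.107288, PARP14, the SAMD9-like Cluster-2499.86175 and DTX3 ended without combined 5, and each without 1 or more cadmium samples and in part other samples (adjusted p up to 0.164). The other calls held under each of the 12 omissions. The groups did not overlap in any of these clusters.

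GTPase IMAP genes, small GTPases of immune cells in vertebrates that are greatly expanded in molluscs, had the highest share of calls among the lists, in equal numbers each way. Of 110 tested clusters 11 rose and 11 fell (20%), with a median of -0.19. IMAP family member 9 (Cluster-2499.38370) measured 21.4, 27.5 and 28.3 CPM in combined and 7, 6.34 and 4.56 CPM in cadmium brains (2.11 ± 0.30, edgeR adjusted p = 0.00179). Family member 4 (Cluster-2499.166560) measured 7.5, 3.12 and 5.04 CPM against 0.0643, 0 and 0 CPM, 238-fold higher by counts (95% counting interval 42.3 to 9432, edgeR adjusted p = 0.00111). Both were higher in every combined sample than in any cadmium sample.

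Other clusters of family member 9 had no count in combined brains. Cluster-2499.148368 had 9.19, 3.43 and 12.9 CPM in cadmium brains, at least 128-fold lower (edgeR adjusted p = 0.00476), and Cluster-2499.148795 had 4.82, 2.54 and 6.8 CPM in cadmium brains, at least 71.1-fold lower (edgeR adjusted p = 0.00246). The latter had 10.3, 3 and 3.83 CPM in polystyrene brains and none in controls. The family 4 cluster with the highest CPM (Cluster-2499.84591) measured 28, 18.2 and 26.2 CPM against 36.5, 61 and 34.9 CPM, without overlap, and did not pass (edgeR adjusted p = 0.409). The summed level of the list was alike, at 448 ± 95.4 CPM (SD, n = 3) in combined and 420 ± 31.3 CPM in cadmium brains. The 4 called clusters kept their calls under each omission, but the list counts ranged from 4 to 12 higher and 4 to 15 lower, and were 3 and 1 with the summed muscle level as a term. Members of this family are similar in sequence and can share reads.

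Among C1q proteins, lectins and ficolins, secreted proteins that bind sugars and microbes, 5 of 211 tested clusters rose and 4 fell (4.27%), with a median of -0.28. The balance depended on the fit, with 8 higher and 12 lower by DESeq2, 0 and 7 with the summed muscle level as a term, and 3 to 6 and 3 to 8 under single omissions. C-type lectin mannose-binding isoform (Cluster-2499.66458) measured 243, 268 and 338 CPM in combined and 789, 974 and 570 CPM in cadmium brains (-1.46 ± 0.25, edgeR adjusted p = 0.00673). Polystyrene brains were also low, at 207, 351 and 205 CPM, and controls high, at 788, 797 and 952 CPM, so this lectin was low in both polystyrene groups. A C-type lectin (Cluster-2499.65119) measured 1.12, 3.31 and 3.42 CPM against 18.7, 19.2 and 17.6 CPM (-2.81 ± 0.36, edgeR adjusted p = 0.00102), below the 9.88 to 18.9 CPM of the controls. Both kept the call with the muscle term (adjusted p = 0.0181 and 0.0229).

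Complement C1q-like protein 4 (Cluster-2499.20590) measured 164, 67.4 and 35.6 CPM in combined and 7.97, 12.2 and 11.9 CPM in cadmium brains (3.06 ± 0.49, edgeR adjusted p = 0.00697), and at most 0.26 CPM in controls. Ficolin-1 (Cluster-2499.105227), a lectin of the complement system, measured 3.5, 4.24 and 1.28 CPM against 0.0643, 0.0746 and 0 CPM, 70.2-fold higher (95% counting interval 19.1 to 586, edgeR adjusted p = 0.00548). Fucolectin (Cluster-2499.21421), which binds fucose, measured 7.92, 1.19 and 2.75 CPM against 0, 0 and 0.115 CPM, 88.7-fold higher (95% counting interval 24.2 to 738, edgeR adjusted p = 0.00448). The spread within the combined group was wide in all 3, and every combined value was still above every cadmium value.

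Cell death genes had 4 of 146 tested clusters lower and 0 higher (2.74%), beside 2.79% of all clusters called either way, with a median of -0.25. Both clusters named baculoviral IAP repeat-containing protein 7/8, an inhibitor of caspases, fell: Cluster-2499.96893 measured 5.47, 9.11 and 13.6 CPM against 33.9, 19.4 and 26.6 CPM (-1.50 ± 0.35, edgeR adjusted p = 0.0343) and Cluster-2499.77448 3.43, 5.31 and 6.18 CPM against 11.4, 16.9 and 16.6 CPM (-1.58 ± 0.37, edgeR adjusted p = 0.0341). BIRC3 (Cluster-2499.108892), another inhibitor of this kind named baculoviral IAP repeat-containing protein 3, fell from 6.68, 6.71 and 4.33 CPM to 2.38, 1.56 and 3.09 CPM (-1.33 ± 0.34, edgeR adjusted p = 0.048). Caspase-3 (Cluster-2499.81506), an executioner protease, fell as well, at 5.47, 9.18 and 6.85 CPM against 16.5, 21 and 11.8 CPM (-1.19 ± 0.30, edgeR adjusted p = 0.0483). The share called was near that of all clusters, so these 4 are single calls and no result about the list. BIRC3 and caspase-3 were chosen after their values were seen. Bcl-2-like protein 1 (Cluster-2499.90221), a survival factor of the mitochondrial route, measured 427, 327 and 473 CPM against 258, 316 and 272 CPM and did not pass (edgeR adjusted p = 0.174). All 4 calls ended without combined 4, combined 5 or cadmium 4, and in part without others (adjusted p up to 0.186).

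Of 115 tested clusters of Toll, tumour necrosis factor and NF-kappa-B signalling 1 rose (0.87%). Toll-like receptor Tollo (Cluster-2499.97806) measured 28.4, 28.8 and 36.5 CPM against 12.7, 19.8 and 17.4 CPM (0.91 ± 0.21, edgeR adjusted p = 0.0348), a call lost without any one of the combined samples, cadmium 4, cadmium 6 or polystyrene 5 (adjusted p up to 0.178). NF-kappa-B inhibitor alpha (Cluster-2499.86214), which holds the factor in the cytosol, overlapped between the groups, at 210, 182 and 290 CPM against 198, 253 and 210 CPM. Macrophage-expressed gene 1 protein (Cluster-2499.11434), a pore-forming protein of phagocytes, had no count in combined and 7.26, 6.12 and 41.1 CPM in cadmium brains, at least 273-fold lower (edgeR adjusted p = 0.0177), but not without combined 4, combined 5 or polystyrene 5 (adjusted p up to 0.0549).

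The lists of antioxidant and metal-handling genes held no call; putative ferric-chelate reductase 1, which was called and is described with the metabolic enzymes, is in neither list. The 48 tested antioxidant clusters, which remove superoxide and peroxides, had a median of 0.07 and 10 without overlap, beside 22.3% of all tested clusters. Copper-zinc superoxide dismutase (Cluster-2499.88296) measured 5094, 3292 and 2408 CPM in combined and 1602, 2508 and 1840 CPM in cadmium brains, overlapping by combined 6 and cadmium 5 (edgeR adjusted p = 0.428). Of 32 metal clusters 0 were called, with 3 at an unadjusted p under 0.05 and a median of 0.18, or -0.08 with the summed muscle level as a term. Soma ferritin (Cluster-2499.88255), the iron store, measured 6684, 3110 and 4073 CPM against 3728, 4829 and 3699 CPM (edgeR adjusted p = 0.857). Copper-transporting ATPase 1 (Cluster-2499.88663) measured 606, 270 and 384 CPM against 214, 268 and 193 CPM, where combined 5 exceeded cadmium 5 by little (edgeR adjusted p = 0.0823), and DESeq2 called 2 metal clusters higher and 0 antioxidant ones.

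Among 140 tested cytochrome P450 clusters, which oxidise lipids and foreign compounds, 3 fell and 1 rose, with a median of -0.09. The share called was 2.86%, beside 2.79% of all clusters, so these are single calls and no result about the list. Cytochrome P450 2B4 (Cluster-2499.68302) measured 0.491, 0.375 and 0.403 CPM against 2.7, 3.51 and 2.71 CPM (-2.79 ± 0.59, edgeR adjusted p = 0.0208). Cytochrome P450 1A1 (Cluster-2499.75542) measured 1.54, 1.94 and 1.68 CPM against 3.79, 6.12 and 3.69 CPM (-1.39 ± 0.32, edgeR adjusted p = 0.0335), and P450 18a1 (Cluster-2499.73318) 1.33, 1.31 and 2.35 CPM against 4.18, 5.3 and 6.63 CPM (-1.69 ± 0.41, edgeR adjusted p = 0.0401). Cytochrome P450 3A5 (Cluster-2499.100032) rose, at 2.03, 2.31 and 1.41 CPM against 0.386, 0.298 and 0.404 CPM (2.37 ± 0.53, edgeR adjusted p = 0.028). All 4 were rare transcripts, while P450 3A8 (Cluster-2499.85160), at 525, 568 and 550 CPM against 533, 562 and 556 CPM, overlapped.

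Conjugating enzymes had 1 of 82 tested clusters higher and 1 lower (2.44%), likewise near the 2.79% of all clusters. UDP-glucuronosyltransferase 1-6 (Cluster-2499.82381), which attaches glucuronic acid, measured 22.7, 21.5 and 19.9 CPM against 5.98, 10.7 and 8.65 CPM (1.34 ± 0.33, edgeR adjusted p = 0.0422). A sulfotransferase (Cluster-2499.93007) measured 0.21, 0.187 and 0.47 CPM against 1.73, 1.72 and 3.17 CPM (-2.90 ± 0.64, edgeR adjusted p = 0.0248). Glutathione S-transferase Mu 3 (Cluster-2499.85222) overlapped, at 324, 357 and 627 CPM against 640, 833 and 455 CPM. Each of these P450 and conjugation calls was lost without combined 4, combined 5 or cadmium 4, among others (adjusted p up to 0.193).

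ATP-binding cassette transporters pump drugs, conjugates and lipids across membranes. Of 50 tested clusters of the list 2 fell (4%) and 0 rose, beside 1.53% and 1.25% of all clusters, with a median of -0.15; with so few calls the count says nothing about the list. ATP-binding cassette sub-family C member 3 (Cluster-2499.128042), a pump for organic anions and conjugates, measured 4.7, 5.87 and 3.16 CPM in combined and 19.4, 10.8 and 17.9 CPM in cadmium brains (-1.81 ± 0.35, edgeR adjusted p = 0.0119). ABCG2 (Cluster-2499.88135), a pump of broad specificity, measured 13.1, 11.9 and 14.6 CPM against 22, 28.9 and 34.1 CPM (-1.10 ± 0.22, edgeR adjusted p = 0.0157). A cluster named ABCB1 (Cluster-2499.85605), the multidrug pump P-glycoprotein, measured 92.4, 72.2 and 81.7 CPM against 118, 135 and 182 CPM (-0.82 ± 0.20, edgeR adjusted p = 0.0397); it lies outside the list and was named after its values were seen. Multidrug resistance-associated protein 1 (Cluster-2499.93469) overlapped, at 55.9, 56.9 and 65.5 CPM against 72, 61.1 and 67.2 CPM. The call of member C3 ended without cadmium 4 (0.0578), of ABCG2 without combined 5, cadmium 5 or cadmium 6 (up to 0.0831), and of ABCB1 without any one of the combined, cadmium or polystyrene samples (up to 0.195).

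Genes of neural function showed single calls, and a shift of the lists was not tested. Log2 fold changes were below 0 for 56 of 88 ion channels, 70 of 106 neuropeptide clusters and 32 of 42 vesicle release clusters. They were below 0 for 39 of 57 neuronal markers, 61 of 118 receptors and 42 of 79 transmitter turnover clusters. List medians ran from -0.12 for neuropeptides to -0.04 for turnover, beside -0.01 over all clusters. Ion channels had 0 of 88 called and neuropeptides 0 of 106, with 6 and 13 at an unadjusted p under 0.05; DESeq2 called 1 of each. Potassium channel subfamily K member 1 (Cluster-2499.76891), a leak channel, overlapped between the groups, as did FMRFamide neuropeptides, at 622, 320 and 311 CPM against 629, 542 and 723 CPM. Of 118 transmitter receptors 1 rose and 2 fell (2.54%), near the 2.79% of all clusters called either way. Metabotropic glutamate receptor 5 (Cluster-2499.20619) measured 3.78, 15.1 and 22 CPM in combined and had no count in cadmium brains, at least 211-fold higher (edgeR adjusted p = 0.004). Metabotropic glutamate receptor 3 (Cluster-2499.80920) was the reverse, without a count in combined and with 2.7, 2.09 and 5.36 CPM in cadmium brains, at least 51-fold lower (edgeR adjusted p = 0.00655).

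5-hydroxytryptamine receptor 2B (Cluster-2499.108711), a serotonin receptor, measured 6.17, 7.68 and 6.78 CPM against 11.3, 11.6 and 13 CPM (-0.80 ± 0.20, edgeR adjusted p = 0.0438). Metabotropic glutamate receptor 7 (Cluster-2499.89215) overlapped, at 680, 449 and 860 CPM against 530, 582 and 573 CPM. RIMS-binding protein 2 (Cluster-2499.93341), which couples calcium channels to vesicle release, was the 1 of 42 release genes called, at 478, 449 and 329 CPM against 256, 227 and 218 CPM (0.84 ± 0.21, edgeR adjusted p = 0.0492). Sodium- and chloride-dependent glycine transporter 2 (Cluster-2499.49913), which takes glycine back into terminals, was the 1 of 79 genes of transmitter turnover called, at 31, 36.6 and 38.7 CPM against 13.9, 19.9 and 9.17 CPM (1.31 ± 0.26, edgeR adjusted p = 0.0147). It was likewise high in polystyrene brains, at 52.5, 38 and 45.8 CPM, over 21.9, 14.1 and 21.3 CPM in controls. Acetylcholinesterase (Cluster-2499.84319), which breaks down acetylcholine, measured 31.5, 19.4 and 20.5 CPM against 21.3, 27.2 and 23.2 CPM, which overlapped (edgeR adjusted p = 0.999).

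Neuronal markers had 2 of 57 lower (3.51%, beside 2.79% of all clusters called either way), both adhesion molecules that guide and bundle neurites. Neural cell adhesion molecule 1 (Cluster-2499.69638) measured 23.8, 15.2 and 13.3 CPM against 37.4, 65.6 and 25 CPM (-1.29 ± 0.32, edgeR adjusted p = 0.044), and the L1-like protein (Cluster-2499.66149) 4.21, 2.62 and 3.83 CPM against 8.87, 19.5 and 8.77 CPM (-1.80 ± 0.38, edgeR adjusted p = 0.0202). Cadmium 5 was the highest sample in both, and both kept the call with the muscle term (adjusted p = 0.0256 and 0.0163). Netrin receptor UNC5C (Cluster-2499.101239), a receptor for axon guidance outside that list, rose, at 217, 163 and 126 CPM against 79, 104 and 71.9 CPM (0.99 ± 0.25, edgeR adjusted p = 0.0455). Neuroglian (Cluster-2499.88806), the insect counterpart of L1, overlapped at 480, 397 and 539 CPM against 412, 418 and 468 CPM. Among these neural calls only the metabotropic receptors 3 and 5 held under each omission; the others ended without combined 5, and most without combined 4 or cadmium samples (adjusted p up to 0.187).

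Several metabolic enzymes and carriers rose. Phosphoserine aminotransferase (Cluster-2499.91273), which makes serine from a glycolytic intermediate, measured 1221, 1037 and 754 CPM in combined and 290, 423 and 245 CPM in cadmium brains (1.65 ± 0.31, edgeR adjusted p = 0.011). Multifunctional protein ADE2 (Cluster-2499.89509), an enzyme of purine synthesis, measured 316, 214 and 171 CPM against 90, 112 and 67.2 CPM (1.38 ± 0.33, edgeR adjusted p = 0.0386). Low-density lipoprotein receptor-related protein 2 (Cluster-2499.38543), an endocytic receptor, measured 402, 177 and 244 CPM against 73.3, 105 and 67.3 CPM (1.75 ± 0.40, edgeR adjusted p = 0.0355). In all 3, combined 4 was the highest sample, as in the muscle clusters.

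Solute carrier family 23 member 2 (Cluster-2499.92036), an ascorbate transporter, measured 65.9, 41 and 25 CPM against 9.64, 14 and 14 CPM (1.81 ± 0.40, edgeR adjusted p = 0.0304). Reticulocalbin-2 (Cluster-2499.42817), a calcium-binding protein of the endoplasmic reticulum, measured 54.6, 19.1 and 20.2 CPM against 5.78, 4.48 and 6.4 CPM (2.49 ± 0.40, edgeR adjusted p = 0.00454). Putative ferric-chelate reductase 1 (Cluster-2499.29349), which reduces iron at membranes, measured 14.1, 6.06 and 12.8 CPM against 0, 0 and 0.0577 CPM, 501-fold higher (95% counting interval 89.5 to 19837, edgeR adjusted p = 8.17e-04), and its controls held 8.46, 3.27 and 20.1 CPM. The cadmium brains were thus the exception among the 4 groups for this reductase. Alternative oxidase (Cluster-2499.117557), a mitochondrial oxidase that bypasses part of the respiratory chain, fell, at 20.2, 10.7 and 11 CPM against 20.3, 44.8 and 56.6 CPM (-1.54 ± 0.35, edgeR adjusted p = 0.03). Combined 4 and cadmium 4 were almost level for this oxidase. All but the reductase were chosen after their values were seen. Apart from reticulocalbin-2 and the reductase, each lost its call without cadmium 6 and without other samples (adjusted p up to 0.155). A cluster named solute carrier family 45 (Cluster-2499.94086), named by rule, measured 13.9, 4 and 5.44 CPM in combined and 0.193, 0 and 0.231 CPM in cadmium brains (5.63 ± 0.68, edgeR adjusted p = 8.17e-04). Controls held 5.67, 10.2 and 4.29 CPM and polystyrene brains 10.4, 12.6 and 11.7 CPM, so cadmium brains alone were low, and the call held under each omission.

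Energy, proteasome and ribosome genes had few calls. Glycolysis and the citric acid cycle had 0 of 65 called, lipid transport and oxidation 0 of 72, and the proteasome 0 of 38, with 9, 8 and 0 at an unadjusted p under 0.05. DESeq2 called 0, 3 and 0 of these. The housekeeping members with the highest CPM overlapped between the groups: arginine kinase (Cluster-2499.86191), apolipophorins (Cluster-2499.89339), glutamine synthetase (Cluster-2499.88444), proteasome regulatory subunit 1 (Cluster-2499.86743) and ATP synthase subunit alpha (Cluster-2499.87426). Ribosomal proteins had 1 of 101 lower (0.99%), 96 with a log2 fold change below 0 and a median of -0.34. 40S ribosomal protein S19 (Cluster-2499.83910) was the one called, at 1.26, 0.562 and 1.61 CPM against 3.41, 5.82 and 2.65 CPM (-1.78 ± 0.45, edgeR adjusted p = 0.0469), lost under 10 omissions (adjusted p up to 0.188), and 60S ribosomal protein L5 (Cluster-2499.88439) overlapped at 1820, 1211 and 1686 CPM against 1617, 1956 and 1599 CPM.

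Lysosomal genes had 2 of 107 higher and 2 lower (3.74%), beside 2.79% of all clusters, so these are single calls. Beta-hexosaminidase subunit alpha (Cluster-2499.92452), which trims glycolipids, measured 38.3, 30.3 and 39.6 CPM against 19.7, 23.5 and 20.6 CPM (0.76 ± 0.18, edgeR adjusted p = 0.0346), and a lysosome membrane protein 2-like cluster (Cluster-2499.83455) 14.3, 17 and 13 CPM against 8.48, 6.64 and 9.98 CPM (0.82 ± 0.20, edgeR adjusted p = 0.0472). Acid phosphatase type 7 (Cluster-2499.87984) measured 5.33, 4.68 and 6.18 CPM against 14.7, 15.6 and 18.7 CPM (-1.60 ± 0.29, edgeR adjusted p = 0.00887), with 2.42 to 5.4 CPM in controls. An arylsulfatase (Cluster-2499.35352), which removes sulfate groups, measured 3.64, 6.8 and 9.4 CPM against 18.3, 13.3 and 20.9 CPM (-1.40 ± 0.31, edgeR adjusted p = 0.0259). Lysosomal-associated transmembrane protein 4A (Cluster-2499.88944) overlapped at 719, 687 and 723 CPM against 629, 700 and 717 CPM. Only the acid phosphatase call held under each omission (adjusted p up to 0.187 for the others, each without combined 4 or cadmium 4).

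Cytoskeletal genes had 2 of 80 higher (2.5%), near the 2.79% of all clusters called either way. Cytoplasmic actin (Cluster-2499.102114) measured 31.7, 22.9 and 26.3 CPM against 12.3, 16.7 and 14.5 CPM (0.89 ± 0.21, edgeR adjusted p = 0.0343) and actin-2 (Cluster-2499.157499) 24, 30.9 and 21.1 CPM against 7.39, 10.9 and 7.21 CPM (1.58 ± 0.37, edgeR adjusted p = 0.0344). Both were lost without combined 4, combined 5 or any cadmium sample (adjusted p up to 0.174), and tubulin beta chain (Cluster-2499.88465) overlapped at 4903, 3872 and 4155 CPM against 3824, 4555 and 4009 CPM. Genes of cilia and axonemes, the motile machinery of epithelia and sperm, had 2 of 147 lower (1.36%, beside 1.53% of all clusters) and a median of -0.13. Cilia- and flagella-associated protein 95 (Cluster-2499.75128) measured 4.77, 4.74 and 5.98 CPM against 15, 18.2 and 23.1 CPM (-1.86 ± 0.25, edgeR adjusted p = 0.00149). Protein 251 (Cluster-2499.74030) measured 30.6, 34.8 and 38.2 CPM against 65.3, 75.4 and 95.7 CPM (-1.19 ± 0.20, edgeR adjusted p = 0.00598). Both had been raised by cadmium over control, by 1.76 and 0.91 (edgeR adjusted p = 0.00147 and 0.0193), and both kept the call under each omission, while ciliary dynein beta chain (Cluster-2499.87338) was not called. The 45 sperm and testis genes had no call either, 0 by DESeq2, and testisin (Cluster-2499.125927), a serine protease, overlapped at 989, 390 and 902 CPM against 839, 1183 and 607 CPM.

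Matrix genes had 5 of 162 higher and 5 lower (6.17%), a split that was 6 and 12 by DESeq2, 0 and 3 with the summed muscle level as a term, and 0 to 5 and 3 to 10 under single omissions. Hemicentin-1, a large protein of basement membranes, was named on clusters that went both ways. Cluster-2499.108007 measured 0.981, 1.06 and 0.672 CPM in combined and 8.8, 14 and 11.7 CPM in cadmium brains (-3.66 ± 0.38, edgeR adjusted p = 2.82e-04), and Cluster-2499.104653 9.25, 14.1 and 12 CPM against 0.578, 0.746 and 1.44 CPM (3.64 ± 0.64, edgeR adjusted p = 0.0121), the latter lost without cadmium 4 or 5 (up to 0.0677). Its controls held 69.3, 29.6 and 109 CPM. A hemicentin-2-like cluster (Cluster-2499.106183) measured 0.21, 0 and 0 CPM against 7.77, 8.06 and 8.71 CPM, 124-fold lower (95% counting interval 42 to 602, edgeR adjusted p = 7.07e-04), and another (Cluster-2499.112759) 0.701, 1.75 and 1.28 CPM against none, at least 19.2-fold higher (edgeR adjusted p = 0.0132), lost without combined 5 or cadmium 4 (up to 0.0513). A hemicentin-1 cluster of higher CPM (Cluster-2499.121754) varied from 988 to 3045 CPM within the combined group and overlapped. Outside the list, tolloid-like protein 2 (Cluster-2499.92370), a protease that matures collagen, measured 6.38, 8.36 and 10.5 CPM against 67.5, 61 and 43.6 CPM (-2.77 ± 0.39, edgeR adjusted p = 0.00251). A fibrillin-3-like member (Cluster-2499.127831), named after a microfibril protein, measured 12.2, 0.936 and 3.36 CPM against 0.321, 0.671 and 0.404 CPM (3.55 ± 0.87, edgeR adjusted p = 0.0458), with combined 4 far above its group, and lost the call under 10 omissions (adjusted p up to 0.244).

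Cadherin-99C (Cluster-2499.14026), an adhesion protein of insect microvilli, had no count in combined and 15.7, 11.6 and 17.4 CPM in cadmium brains, at least 225-fold lower (edgeR adjusted p = 4.47e-04), and 2.87, 14.6 and 6.84 CPM in polystyrene brains. Neuralized-like protein 4 (Cluster-2499.14293), a ubiquitin ligase adaptor, had no count in combined and 36.2, 9.48 and 66.8 CPM in cadmium brains, at least 565-fold lower (edgeR adjusted p = 0.0117), a call lost without polystyrene 5 (0.0563). A receptor-type tyrosine-protein phosphatase eta-like cluster (Cluster-2499.115737), which removes phosphate from tyrosines, measured 0.0701, 0 and 0 CPM in combined, 7.45, 6.34 and 8.19 CPM in cadmium and 7.75, 2.28 and 3.71 CPM in polystyrene brains, with none in controls, 335-fold lower in combined than in cadmium brains by counts (95% counting interval 59.7 to 13256, edgeR adjusted p = 4.47e-04). Phospholipase A and acyltransferase 2 (Cluster-2499.149486), a lipid-remodelling enzyme, had no count in combined or control brains and 4.5, 2.16 and 10.1 CPM in cadmium brains, at least 84.1-fold lower (edgeR adjusted p = 0.0396), and lost the call under 9 omissions (adjusted p up to 0.112). Clusters named after toxins and secreted proteases were also lower. Conoporin-Cn1 (Cluster-2499.12834), named after a pore-forming cone snail toxin, had no count in combined or control brains, 10.4, 9.7 and 16.9 CPM in cadmium and 79.5, 34.7 and 16.4 CPM in polystyrene brains, at least 186-fold lower (edgeR adjusted p = 0.0081). A conotoxin-named cluster (Cluster-2499.14199) measured 0, 0 and 0.201 CPM against 38.9, 31.3 and 201 CPM, 1464-fold lower (95% counting interval 501 to 7102, edgeR adjusted p = 0.0035). Crustapain (Cluster-2499.10571), a cysteine protease, had no count in combined and 4.18, 3.21 and 16.3 CPM in cadmium brains, at least 119-fold lower (edgeR adjusted p = 0.00385).

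Millepora cytotoxin-1 (Cluster-2499.91776), a name from a coral toxin, measured 41.4, 41.8 and 27.3 CPM against 232, 286 and 170 CPM, with 146 to 223 CPM in controls (-2.64 ± 0.36, edgeR adjusted p = 0.00198). All combined values lay below every value of the other groups. Digestive enzymes had 1 of 84 higher and 1 lower (2.38%), near the 2.79% of all clusters. Alpha-amylase (Cluster-2499.30060), which cuts starch, measured 2.45, 3.75 and 6.72 CPM against 0.386, 0.149 and 0.0577 CPM (4.41 ± 0.98, edgeR adjusted p = 0.0341) and 3, 2.76 and 22.7 CPM in polystyrene brains, high in both polystyrene groups. Acidic mammalian chitinase (Cluster-2499.87812) measured 0.14, 0.187 and 0.269 CPM against 2.57, 3.28 and 0.75 CPM (-3.41 ± 0.70, edgeR adjusted p = 0.018). Both calls ended without combined 4, combined 5, cadmium 4 or cadmium 5 (adjusted p up to 0.141), amylase also without others, and chymotrypsinogen 2 (Cluster-2499.37183) overlapped.

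Germ line and egg genes had 2 of 16 lower (12.5%), with a median of -0.44. Piwi-like protein 1 (Cluster-2499.83958), which silences transposons with small RNAs, measured 43.5, 58.8 and 69.8 CPM in combined and 173, 192 and 87.7 CPM in cadmium brains (-1.40 ± 0.26, edgeR adjusted p = 0.0101). Outside the list, ATP-dependent RNA helicase DDX4 (Cluster-2499.76455), its partner in germ granules, measured 20, 17.5 and 22.3 CPM against 45.6, 44.3 and 29.1 CPM (-0.99 ± 0.20, edgeR adjusted p = 0.0151). Controls held 99 to 123 CPM and 26 to 33.7 CPM, between the combined and cadmium groups by their means; cadmium 6 was below every control for Piwi-like protein 1 and within their range for DDX4. The combined values lay below every control for both. Zygote arrest protein 1 (Cluster-2499.78438), an RNA-binding protein of oocytes that is likewise outside the list, measured 18.6, 22.8 and 36.1 CPM against 58.5, 78.5 and 51.4 CPM (-1.28 ± 0.24, edgeR adjusted p = 0.0114). The perivitellin-2 67 kDa subunit (Cluster-2499.88662), an egg defence protein of apple snails, measured 1.19, 1.12 and 0.739 CPM against 15, 11.9 and 1.56 CPM (-3.20 ± 0.74, edgeR adjusted p = 0.0351). The Piwi call held under each omission, while those of DDX4, zygote arrest protein 1 and perivitellin-2 ended without combined 5 or cadmium 5, among others (adjusted p up to 0.142).

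Transposable elements had 3 of 399 higher and 8 lower, with a median of -0.02, and single omissions gave 1 to 7 higher and 2 to 11 lower. The share called was 2.76%, beside 2.79% of all clusters, so it is no result about the list. Among those that fell, a cluster of the R2 element (Cluster-2499.20679), a retrotransposon of ribosomal RNA genes in insects, had no count in combined, control or polystyrene brains and 2.12, 2.31 and 2.88 CPM in cadmium brains, at least 36.7-fold lower (edgeR adjusted p = 0.00827), under each omission. A transposon 17.6 cluster (Cluster-2499.92356) measured 2.94, 0.812 and 1.61 CPM against 12.2, 7.31 and 6.06 CPM (-2.25 ± 0.43, edgeR adjusted p = 0.0118), lost without cadmium 4 (0.073). A PiggyBac element-derived protein 4 cluster (Cluster-2499.95114) measured 57.3, 49.6 and 32.5 CPM against 7.39, 6.71 and 9.17 CPM (2.58 ± 0.27, edgeR adjusted p = 2.92e-04), high also in polystyrene brains at 45.5, 43.2 and 29.5 CPM. A jockey element cluster (Cluster-2499.48074) rose as well, at 6.66, 5.62 and 3.83 CPM against 0.193, 0.597 and 0.807 CPM (3.31 ± 0.61, edgeR adjusted p = 0.00937), lost without cadmium 4 (0.0502). A LINE-1 reverse transcriptase homolog (Cluster-2499.88999) overlapped, at 433, 422 and 475 CPM against 461, 449 and 461 CPM. Oxygen carriers had 2 of 38 lower (5.26%) and a median of -0.60; with the summed muscle level as a term 8 were lower and the median was -1.91. Androglobin (Cluster-2499.10661) measured 0.0701, 0 and 0.0672 CPM against 1.16, 1.64 and 4.27 CPM, 55.6-fold lower (95% counting interval 15 to 465, edgeR adjusted p = 0.00812). A rare hemocyanin 2 cluster (Cluster-2499.48959) measured 0, 0 and 0.0672 CPM against 0.707, 1.27 and 1.38 CPM, 50.7-fold lower (95% counting interval 8.71 to 2042, edgeR adjusted p = 0.0164). The androglobin call ended without cadmium 6 (adjusted p = 0.0887), and that of the rare hemocyanin without combined 4 or 5 (up to 0.0741). The hemocyanin 2 cluster with the highest CPM (Cluster-2499.88229), the copper protein of snail blood, measured 1503, 750 and 665 CPM against 1126, 2359 and 1589 CPM and overlapped (-0.80 ± 0.46, edgeR adjusted p = 0.474), but was called lower with the muscle term, at -2.14 (adjusted p = 0.0257).

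The effect of polystyrene was then compared with and without cadmium, by the difference between combined against cadmium and polystyrene against control, which share no sample. The difference passed the test for 3824 of 64046 clusters (5.97%), 1438 (2.25%) positive and 2386 (3.73%) negative. Polystyrene alone had 4536 clusters called against control (7.08%). Of the 1785 clusters called in the cadmium background, 767 had the same sign under polystyrene alone, 210 were called there in the same direction and 314 in the opposite one, and 44.1% of all tested clusters had the same sign. The difference holds combined against cadmium as one of its terms, so clusters called there are likely to pass: 978 of the 1785 (54.8%) did, and 61 of the 108 called clusters named here.

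Single chaperone clusters and many clusters of the antiviral-type families carried differences of this kind. The difference passed for 2 of 58 clusters of the 70 and 90 kDa list, 1 of 17 endoplasmic reticulum clusters and 0 of 11 small heat shock clusters. These counts were not above the 5.97% of all clusters, so they are no result about the chaperone lists. HSP 90-beta changed by -1.03 with cadmium and by 0.24 without it (difference edgeR adjusted p = 0.0206), and BiP by -1.11 and 0.56 (adjusted p = 0.0203). The difference of heat shock protein 70 B2 did not pass (edgeR adjusted p = 0.0665). The sacsin cluster Cluster-2499.80496 changed by -1.28 with and 1.09 without cadmium (edgeR adjusted p = 1.92e-04), and RNF213 by -1.20 and 0.78 (edgeR adjusted p = 0.0023). Over the antiviral-type families 119 of 358 clusters had a negative and 6 a positive difference; with polystyrene alone 84 were higher and 5 lower than control (background 4.66% and 2.42%), and with cadmium alone 71 and 5 (2.6% and 1.75%, 4.34% either way). Zygote arrest protein 1 changed by -1.28 with and 1.22 without cadmium (edgeR adjusted p = 9.55e-04), and baculoviral IAP repeat-containing protein 3 by -1.33 and 1.33 (edgeR adjusted p = 0.00518). Other genes moved alike with and without cadmium: C-type lectin mannose-binding isoform changed by -1.46 and -1.73 (difference edgeR adjusted p = 0.709), glycine transporter 2 by 1.31 and 1.25 (adjusted p = 0.953) and alpha-amylase by 4.41 and 4.12 (adjusted p = 0.931). A difference that misses the threshold does not show that the changes were equal.

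**Figure D5:**
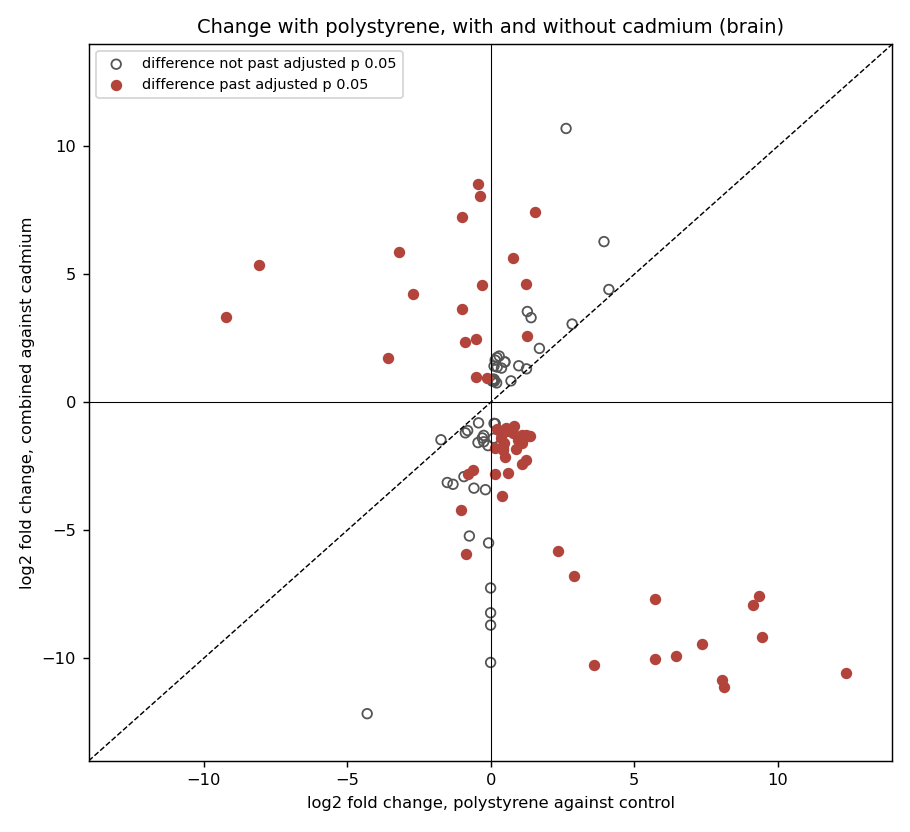
Log2 fold change on adding polystyrene to cadmium (vertical, combined against cadmium) and to no cadmium (horizontal, polystyrene against control) for the 108 called clusters named in the text, both fitted by edgeR. Filled points are the 61 clusters whose difference passed an adjusted p of 0.05; the dashed line marks equal changes, and for clusters without a count in a group the fitted values depend on the prior count.

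The same comparison was made in liver, and the difference between the tissues was tested in a fit of all 24 samples. It passed for 586 of 78809 clusters (0.744%), 256 (0.325%) positive and 330 (0.419%) negative. No chaperone named here passed that test. Combined against cadmium, heat shock protein 70 B2 changed by -3.05 in liver (edgeR adjusted p = 0.0404), HSP 90-beta by -0.95 (adjusted p = 0.0213) and endoplasmin by -0.80 (adjusted p = 0.0358), beside -3.35, -1.03 and -0.83 in brain. In liver BiP (-0.88), calreticulin (-0.75), DnaJ C16 (-1.48) and heat shock cognate 71 kDa protein (-0.40) did not pass. Their edgeR adjusted p were 0.0614, 0.0569, 0.5 and 0.202. Other clusters differed. C-type lectin mannose-binding isoform fell in brain and rose by 2.51 in liver (edgeR adjusted p = 0.0142; difference adjusted p = 9.30e-04), the hemicentin-1 Cluster-2499.108007 fell in brain and rose by 4.26 in liver (adjusted p = 2.52e-04; difference adjusted p = 1.26e-06), and the PiggyBac cluster rose in brain and fell by 1.55 in liver (adjusted p = 0.0362; difference adjusted p = 4.76e-04). Paramyosin changed by 1.42 in brain and -0.16 in liver (difference edgeR adjusted p = 0.0454), while Piwi-like protein 1 and DDX4 changed by 0.04 and 0.34 in liver, with differences at adjusted p of 0.0295 and 0.0332.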

How the data were processed

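Total RNA of the 24 brain and liver samples was taken with a Qiagen kit and made into libraries with a SMARTER mRNA kit, per the labels. The authors deposited 1 table of expected counts (reads estimated per gene cluster, not scaled between samples), with 4.58% to 6.55% of the values of the 6 compared samples not whole. The assembler, aligner and counter are not given in the sources used here. Names are those of the annotation columns of the deposited table.

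Counts were rounded and fitted with edgeR 4.0.16 (R 4.3.3): filterByExpr at 10 counts kept 64046 of 233875 clusters (98.6% of the brain counts), scaled by TMM, 1 mean per group over the 12 brain samples, robust quasi-likelihood test, Benjamini-Hochberg adjustment. The fit across tissues used all 24 samples. Gene lists are name patterns, described by counts and medians and not tested. Counting intervals are exact (Clopper-Pearson) at 95% and, like the floor of 3 counts over a group, cover counting error only. Counts were simulated for this comparison (64046 clusters, 50 changed at each fold). The 2- and 8-fold changes were all increases and the 4- and 16-fold changes all decreases. Recovered were 6% of 2-fold and 80% of 8-fold increases, and 46% of 4-fold and 64% of 16-fold decreases. Fold size and direction cannot be told apart across these shares. There were 8 false of 106 calls, and 0 calls where nothing was changed. The simulated clusters varied independently of each other, without a shift shared across clusters such as in muscle content. These counts therefore do not measure false calls in the real samples. No 2 samples of a group were alike within sampling noise. The smallest p that permuting 3 against 3 samples allows is 0.1.

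Members, lists and tests were chosen with earlier results of these data known. Named by rule were, among called clusters with a name, no overlap and a mean of 5 CPM or more in either group, the 12 largest changes each way (1 per product), up to 2 called members of each list and direction with the smallest p, and each list's member with the highest counts, with the 70 kDa heat shock cluster of smallest p and acetylcholinesterase. Chosen outside it, after their values were seen, were the antiviral-type families with their named clusters, HSP 90-beta, ABCB1, caspase-3, BIRC3, P450 18a1, C1q-like protein 4, UNC5C, DDX4, zygote arrest protein 1, tolloid-like protein 2, Millepora cytotoxin-1, cytochrome b, COX1 fragment Cluster-2499.84918, cytochrome c oxidase subunit 3, the muscle clusters other than catchin, myosin heavy chain, the first titin and the tropomyosin-domain cluster, copper-transporting ATPase 1 and the high-CPM enzymes and carriers. Alternatives were other filters, DESeq2 1.42.0 size factors and test, a replicate term, the compared samples alone, a minimum fold, single omissions and, added after seeing the data, 2 on muscle content.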

Additional observations from a re-analysis of the deposited data

Results flagged for a closer look

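Of the 108 called clusters named in the report, 61 had a change on adding polystyrene that differed with and without cadmium by edgeR's test of the difference itself (adjusted p under 0.05); over all 1785 called clusters the share was 54.8%, and the difference holds the contrast that chose them. Values below are that difference on the log2 scale, positive where the change was higher with cadmium; where a group had no count, the fitted value depends on the prior count and is no bound.

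Among chaperones the difference was -1.28 for HSP 90-beta, -1.67 for BiP and -2.63 for DnaJ homolog subfamily C member 16. Among mitochondrial clusters it was -13.42 for the COX1 fragment Cluster-2499.87407, -5.08 for Cluster-2499.84918 and 13.43 for Cluster-2499.74915. It was -16.90 for the cytochrome b fragment, -3.17 for NADH chain 4, -8.15 for chain 1, 5.29 for chain 4L and 6.95 for chain 6. The titin Cluster-2499.64766 differed by 1.10 and netrin receptor UNC5C by 1.49.

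In the antiviral-type families RNF213 differed by -1.98, rnf213-alpha by 8.41, PARP14 by -1.66 and the sacsin clusters by -2.37 (Cluster-2499.80496), -2.68 (Cluster-2499.107288) and -2.41 (Cluster-2499.93522). SAMD9-like clusters differed by -3.53 (Cluster-2499.94685), -1.75 (Cluster-2499.86175) and 3.37 (Cluster-2499.113449), the O-acetyl-ADP-ribose deacetylase by 4.90 and DTX3 by 12.55. GTPase IMAP clusters differed by 5.92 (Cluster-2499.166560), -15.77 (Cluster-2499.148368) and -18.62 (Cluster-2499.148795). Ficolin-1 differed by 9.06, the C-type lectin Cluster-2499.65119 by -2.04 and macrophage-expressed gene 1 by -19.25. The IAP clusters differed by -2.70 (Cluster-2499.77448), -2.51 (Cluster-2499.96893) and -2.66 (Cluster-2499.108892).

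For detoxification the difference was 3.25 for P450 3A5, -2.96 for P450 2B4 and -2.69 for ATP-binding cassette C3. It was 8.96 for ferric-chelate reductase, 4.84 for solute carrier family 45, 3.0 for reticulocalbin-2, -2.06 for acid phosphatase type 7 and -2.20 for ribosomal protein S19. L1-like adhesion protein differed by -1.96, ciliary proteins 95 and 251 by -2.30 and -1.60, Piwi-like protein 1 by -1.76, DDX4 by -1.52, zygote arrest protein 1 by -2.51 the transposon 17.6 cluster by -3.49 and the PiggyBac cluster by 1.31.

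Among matrix and secreted proteins it was 4.64 for hemicentin-1 Cluster-2499.104653, -4.05 for Cluster-2499.108007, -9.66 and 8.25 for the hemicentin-2-like Cluster-2499.106183 and Cluster-2499.112759, -3.38 for tolloid-like protein 2 and -2.0 for Millepora cytotoxin-1. It was -17.04 for tyrosine phosphatase eta-like, -16.80 for phospholipase A and acyltransferase 2, -18.88 for cadherin-99C, -22.94 for conoporin-Cn1, -13.85 for the conotoxin-named cluster and -16.36 for crustapain.

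For 21 of the named clusters the change from cadmium to combined differed between brain and liver (log2, positive where higher in brain). Where a group had no count, the fitted value depends on the prior count and is no bound. Metabotropic glutamate receptor 5 had none in cadmium brains and combined livers, and the SAMD9-like Cluster-2499.13316 none in combined brains and cadmium livers. Positive were metabotropic glutamate receptor 5 at 18.78, C1q-like protein 4 at 9.35, solute carrier family 45 at 6.63, the deacetylase at 6.69, the SAMD9-like Cluster-2499.113449 at 5.13, the PiggyBac cluster at 4.14, reticulocalbin-2 at 2.56, P450 3A5 at 2.46 and paramyosin at 1.59. Negative were the SAMD9-like Cluster-2499.13316 at -16.95, the COX1 fragments Cluster-2499.87407 at -8.04 and Cluster-2499.84918 at -5.67, hemicentin-1 Cluster-2499.108007 at -7.90, the arylsulfatase at -7.06, the mannose-binding lectin at -3.96, Millepora cytotoxin-1 at -3.45, chitinase at -3.27, the C-type lectin at -2.89, acid phosphatase at -1.87, Piwi-like protein 1 at -1.42 and DDX4 at -1.32.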

How the results depend on the processing

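Without a filter 4493 clusters were called between combined and cadmium brains (2032 higher, 2461 lower), with DESeq2's Wald test 3460 (1613 and 1847), and with the summed muscle level as a term 389 (160 and 229). Leaving out single samples gave 780 to 2816 calls, 310 to 1279 higher and 452 to 1537 lower. The difference between polystyrene with and without cadmium gave 7067 without a filter, 6583 with DESeq2, 1544 with the muscle term and 1922 to 4001 under omissions. The tissue difference gave 2166, 1680, 357 with only the samples compared, and 329 to 727. No called cluster that is named changed sign under any alternative run. Among named clusters that were not called, 17 did, in 30 fits, with adjusted p of 0.576 or more. With the muscle term heat shock protein beta-8 went to -0.51, superoxide dismutase to -0.48, arginine kinase to -0.45, soma ferritin to -0.37, tropomyosin to -0.28, tubulin beta to -0.20, myosin heavy chain to -0.19, NF-kappa-B inhibitor alpha to -0.11 and P450 3A8 to 0.01 (log2). Ranges over omissions crossed 0 for P450 3A8 (-0.03 to 0.01), soma ferritin (-0.20 to 0.40), NF-kappa-B inhibitor alpha (-0.17 to 0.18), potassium channel K1 (-0.06 to 0.19), testisin (-0.45 to 0.11), ATP synthase alpha (-0.13 to 0.01), arginine kinase (-0.03 to 0.38), ribosomal protein L5 (-0.26 to 0.02), proteasome subunit 1 (-0.15 to 0.03), lysosomal transmembrane protein 4A (-0.00 to 0.09), apolipophorins (-0.20 to 0.35), tubulin beta (-0.05 to 0.13) and acetylcholinesterase (-0.27 to 0.13). The muscle term also turned the sign of the median of 8 of 35 lists, among them small heat shock proteins (-0.19), metal genes (-0.08), vesicle release (0.10) and muscle genes (-0.01); scaling alternatives turned none. Same-numbered combined and cadmium samples did not deviate together over all clusters (correlations of -0.046, 0.036 and 0.039), beside -0.077 to 0.049 for differently numbered pairs. Whether same-numbered samples share more than a number cannot be told from these correlations. With a replicate block 1471 clusters were called, and 3248 for the difference between the polystyrene changes; 26 of the 145 named clusters fell below the threshold. No block was fitted for the tissue difference, whose tissues carry different numbers. Of the 108 called clusters named in the text 42 kept the call under every single omission and 26 with the muscle term. The cause of these shifts was not tested. In the self-test 2-fold increases were mostly missed at this sample number, and 2-fold decreases were not simulated.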
